A study of Saccharomyces cerevisiae with 6 samples.

Results

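The 10 genes described here encode proteins that build the yeast cell wall or are anchored in it: *GSC2* (also called *FKS2*), *CHS3*, *CRH1*, *PIR1*, *PIR3*, *CIS3*, *HSP150*, *CWP1*, *SED1* and *PST1*. They were set as a list of ORF names and not by a cut on measured values, but earlier results of these data were known when they were chosen. *PIR1* was looked up as YKL164W, a name that was not among the 6212 ORFs listed in the deposited table. It was not searched under another name and so was not analysed here. A log2 ratio was present on all 6 arrays for the other 9 genes. Each ratio sets *Saccharomyces cerevisiae* cells of the BY4741 background exposed to rapamycin, an inhibitor of the Tor kinases, at 200 ng/ml for 1 h in YPD medium against cells of the same strain that received the vehicle. The strains were the *ptc1 ptc6* double mutant, which lacks both type 2C phosphatases Ptc1 and Ptc6, the *ptc6* mutant, which lacks Ptc6, and wild type cells without either deletion. Per strain, 1 culture was divided into a treated and an untreated part, and the same RNA pair was hybridized to 2 arrays with Cy3 and Cy5 exchanged. A strain is therefore 1 biological replicate, no test between strains was possible, and all standard deviations below cover technical variation between 2 arrays only.

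The yeast cell wall is a layer of beta-glucan, a small amount of chitin, and mannoproteins attached to the glucan either through a remnant of a GPI anchor or through internal repeats (the PIR proteins). When the wall is weakened, surface sensors signal through Rho1, protein kinase C and a MAP kinase cascade that ends in Slt2, and the transcription factor Rlm1 then raises the expression of many wall genes. This route is called the cell wall integrity (CWI) pathway. Inhibition of Tor kinases by rapamycin is known to activate it.

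Facts of the whole series set the scale for single genes. Both arrays of a strain gave a ratio for 4295 ORFs in *ptc1 ptc6*, 3925 in *ptc6* and 3476 in wild type cells. The standard deviation of the difference between both arrays was 0.48, 0.35 and 0.37 log2 units in *ptc1 ptc6*, *ptc6* and wild type cells, with a median ratio over these ORFs of 0.03, 0.07 and 0.02 on the log2 scale. A gene was called induced when its mean log2 ratio exceeded 1 (2-fold) and repressed when it was below -1. Of the deleted genes, *PTC6* was without a ratio in both mutants and had log2 ratios of 1.11 and 0.62 in wild type cells. For *PTC1* the table held just -0.28, from the Cy5 array of wild type cells. *PTC1* thus had no ratio in *ptc6* cells either, which carry this gene, so a missing ratio cannot show a deletion.

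Of the 9 genes, 4 were induced in *ptc1 ptc6* cells, 5 in *ptc6* cells and 6 in wild type cells. None was repressed in any strain. *CRH1*, *PIR3*, *HSP150* and *PST1* passed 2-fold in all 3 strains. *SED1* passed it in *ptc6* and wild type cells, and *GSC2* in wild type cells alone. In the double mutant *PIR3* and *PST1* passed 2-fold on each array, whereas the calls of *CRH1* and *HSP150* rest on 1: without the array that had rapamycin-treated cells in Cy5, 2 genes were induced, and without the other array 5 were, *SED1* among them. Among all ORFs with both values, induction was called for 12.2%, 10.6% and 14.7% in *ptc1 ptc6*, *ptc6* and wild type cells, and repression for 15.2%, 14.2% and 18.8%. The position of a gene among all ORFs of a strain shows the same spread: *PST1* exceeded 98.4%, 97.2% and 96.7% of ORFs in *ptc1 ptc6*, *ptc6* and wild type cells, whereas *CWP1* exceeded 39.1%, 34.1% and 32.1%. Because every ratio is relative to the untreated cells of its own strain, the starting levels of these genes in the strains cannot be read from it and were not analysed here. The paper lists *GSC2*, *CRH1*, *PIR3*, *HSP150*, *SED1* and *PST1* as more than 2-fold higher in *ptc1 ptc6* than in wild type cells without rapamycin. A lower ratio in *ptc1 ptc6* cells therefore need not be a lower level after rapamycin.

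**Figure D1:**
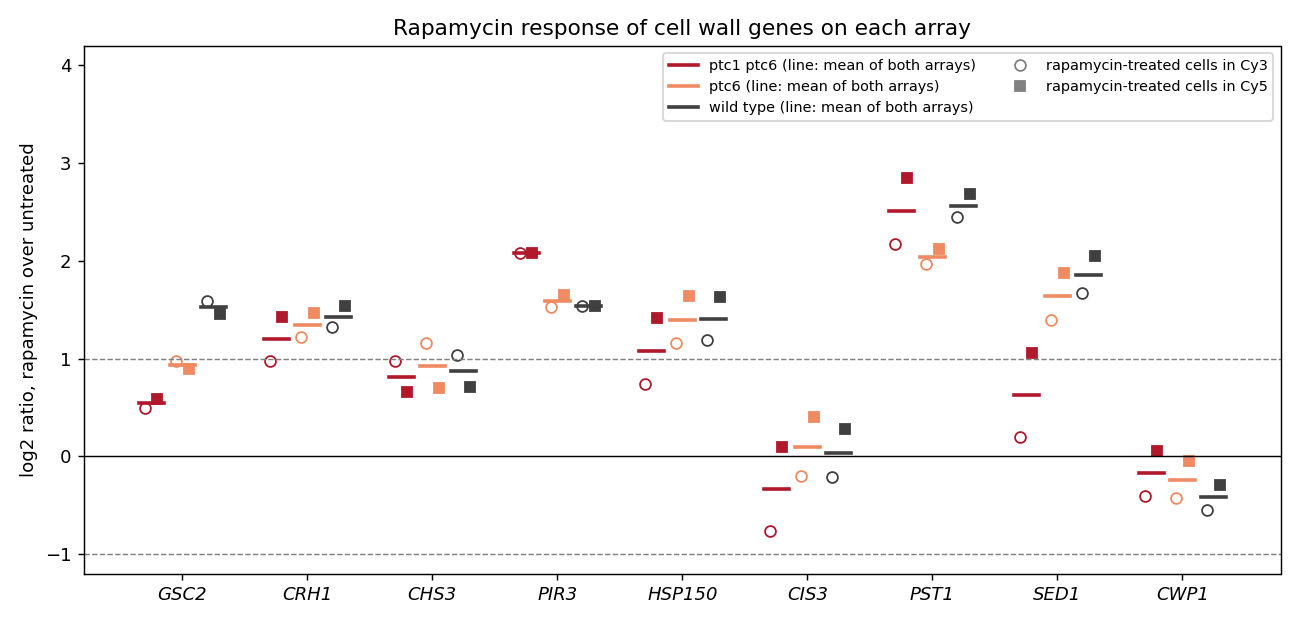
The vertical axis gives the log2 ratio of rapamycin-treated over untreated cells for 9 cell wall genes in *ptc1 ptc6*, *ptc6* and wild type cells, with open circles for the array on which treated cells carried Cy3, filled squares for Cy5, horizontal bars for the mean of both, and dashed lines at 2-fold. *PST1* lies highest in every strain, *CIS3* and *CWP1* stay between the dashed lines, and the values of *GSC2* are separate in the 3 strains.

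The wall enzymes come first. *GSC2* (YGR032W, on chromosome VII) encodes an alternative catalytic subunit of beta-glucan synthase, which is made mainly under stress or on poor carbon sources. Its log2 ratio was 0.49 and 0.59 in *ptc1 ptc6*, 0.98 and 0.89 in *ptc6*, and 1.59 and 1.46 in wild type cells, with the array on which rapamycin-treated cells carried Cy3 given first, here and below. No value of 1 strain overlapped those of another. The mean inductions were 1.46-fold in *ptc1 ptc6*, 1.91-fold in *ptc6* and 2.88-fold in wild type cells. The difference from wild type was -0.98 log2 units in *ptc1 ptc6* cells (-1.10 to -0.87 over the 4 pairs of arrays) and -0.59 in *ptc6* cells (-0.70 to -0.48). Between the mutants, *ptc1 ptc6* minus *ptc6* cells gave -0.39 (-0.49 to -0.30).

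*CRH1* (YGR189C, chromosome VII) encodes a transglycosylase that links chitin to beta-glucan. It had log2 ratios of 0.98 and 1.43 in *ptc1 ptc6*, 1.22 and 1.47 in *ptc6*, and 1.32 and 1.54 in wild type cells. These ranges overlapped in all 3 comparisons, and the difference from wild type was -0.23 in *ptc1 ptc6* cells (-0.56 to 0.11) and -0.09 in *ptc6* cells (-0.32 to 0.15). *CHS3* (YBR023C, chromosome II), the catalytic subunit of the chitin synthase that makes most of the chitin of the wall, had a mean below 2-fold in every strain. It had 0.97 and 0.66 in *ptc1 ptc6*, 1.16 and 0.70 in *ptc6*, and 1.04 and 0.71 in wild type cells. The Cy3 array alone was past 2-fold in *ptc6* and wild type cells and the Cy5 array was not. The means of *CHS3* lay within 0.12 log2 units of each other, so the 3 strains differed by less than the spread between the arrays of each.

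The PIR proteins are bound to beta-glucan through short internal repeats. *PIR3* (YKL163W, chromosome XI) was the only gene of the 9 with a higher ratio in *ptc1 ptc6* than in wild type cells on every pair of arrays. Its log2 ratio was 2.08 on both arrays of *ptc1 ptc6*, 1.53 and 1.65 in *ptc6*, and 1.54 on both arrays of wild type cells. The induction was thus 4.24-fold in *ptc1 ptc6*, 3.01-fold in *ptc6* and 2.91-fold in wild type cells. The *ptc1 ptc6* values lay above all others by 0.54 log2 units against wild type (0.54 to 0.55 over the pairs of arrays) and by 0.49 against *ptc6* cells (0.43 to 0.56). The values of *ptc6* and wild type cells overlapped, with a difference of 0.05.

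*HSP150* (YJL159W), also known as *PIR2*, and *CIS3* (YJL158C), also known as *PIR4*, are neighbouring genes on chromosome X. *HSP150* had log2 ratios of 0.74 and 1.42 in *ptc1 ptc6*, 1.16 and 1.64 in *ptc6*, and 1.19 and 1.63 in wild type cells. The *ptc6* and wild type means, 1.40 and 1.41, were nearly equal, and the *ptc1 ptc6* mean of 1.08 was lower with overlapping values. *CIS3* had -0.77 and 0.10 in *ptc1 ptc6*, -0.20 and 0.40 in *ptc6*, and -0.21 and 0.28 in wild type cells, and so had 1 value on either side of 0 in each strain. *PIR5* (YJL160C), the next gene on this chromosome and a further family member, had no value on any array. PIR genes resemble each other in sequence and the arrays carried PCR-amplified ORFs, so part of a signal may come from a relative. This was not tested.

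Of the proteins with a GPI anchor, *PST1* (YDR055W, chromosome IV), whose expression is a common marker of wall damage, had the highest ratios of the 9 genes in every strain. They were 2.17 and 2.85 in *ptc1 ptc6*, 1.97 and 2.12 in *ptc6*, and 2.45 and 2.68 in wild type cells. Both *ptc6* values lay below both wild type values, with a difference of -0.52 log2 units (-0.71 to -0.33), which is 4.13-fold induction in *ptc6* cells set against 5.92-fold in wild type cells. The double mutant had a mean induction of 5.70-fold. The *ptc1 ptc6* values overlapped those of wild type cells and lay above both *ptc6* values, by 0.47 on average (0.06 to 0.88).

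*SED1* (YDR077W, chromosome IV), a major wall protein of stationary phase cells, had log2 ratios of 0.19 and 1.06 in *ptc1 ptc6*, 1.40 and 1.88 in *ptc6*, and 1.67 and 2.05 in wild type cells. Both *ptc1 ptc6* values lay below all those of the other strains. The mean induction was 1.55-fold in *ptc1 ptc6*, 3.12-fold in *ptc6* and 3.63-fold in wild type cells. The difference of -1.23 log2 units between *ptc1 ptc6* and wild type cells was the largest difference between strains among the 9 genes, yet it ran from -1.86 to -0.61 over the 4 pairs of arrays. *CWP1* (YKL096W, chromosome XI), a mannoprotein deposited mainly at the birth scar, had -0.41 and 0.06 in *ptc1 ptc6*, -0.43 and -0.05 in *ptc6*, and -0.55 and -0.29 in wild type cells. These overlapped between all strains and were within 2-fold throughout.

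Counted over the 9 genes, the values of *ptc1 ptc6* and wild type cells did not overlap for 3. *GSC2* and *SED1* were lower in *ptc1 ptc6* (25% of all ORFs) and *PIR3* was higher (21.7% of all ORFs). Between *ptc6* and wild type cells, *GSC2* and *PST1* were lower in *ptc6* (17.5% of all ORFs) and 0 of the 9 were higher (30.7% of all ORFs). Between *ptc1 ptc6* and *ptc6* cells, *GSC2* and *SED1* were lower in *ptc1 ptc6* (27.9% of all ORFs), and *PIR3* and *PST1* were higher (14.3% of all ORFs). The counts say which genes were separated and are not read as an excess over all ORFs. These comparisons share the arrays of each strain.

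The median difference of the 9 genes was -0.23 log2 units for *ptc1 ptc6* minus wild type cells, against -0.03 over 3242 ORFs with values. It was -0.01 for *ptc6* minus wild type cells, against 0.05 over 3323 ORFs, and -0.14 for *ptc1 ptc6* minus *ptc6* cells, against -0.09 over 3557 ORFs. The differences can also be placed among ORFs that were induced in wild type cells. Such a set is selected on the wild type values that are then subtracted, which tends to lower its differences. *GSC2* entered it by its wild type mean alone, and *SED1* was not induced in *ptc1 ptc6* cells, so the positions below are a description. For *ptc1 ptc6* minus wild type cells, 478 such ORFs had a median difference of -0.32, with the 10th and 90th percentiles at -1.04 and 0.07, and the 6 induced cell wall genes had a median of -0.28. Among these ORFs, *SED1* had a lower difference than all but 7.53% and *GSC2* than all but 10.7%, while *PIR3* was higher than 99.0%. Without chromosomes XII and XIII, on which the ratios of these strains were less related (values stand with the gene lists), an alternative added after the values were seen, the 10th percentile of the remaining 426 ORFs was -0.85, and 3.52% lay below *SED1*, 5.87% below *GSC2* and 99.3% below *PIR3*. For *ptc6* minus wild type cells, 473 such ORFs had a median of -0.30 with the same percentiles at -0.73 and 0.06, and the 6 genes had a median of -0.15. Here *GSC2* was lower than all but 16.9% and *PST1* than all but 21.8%, whereas *HSP150* and *PIR3* were higher than 84.8% and 89.4%.

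**Figure D2:**
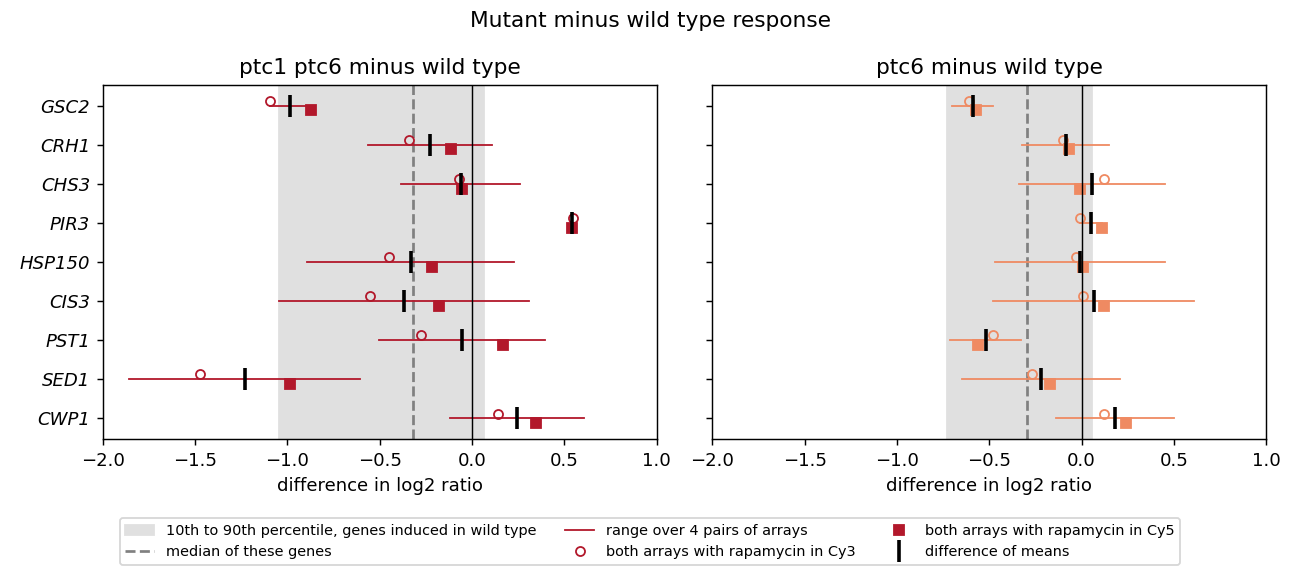
The horizontal axes give the log2 ratio in *ptc1 ptc6* (left) or *ptc6* cells (right) minus that in wild type cells for 9 cell wall genes, with black ticks for the difference of means, lines for the range over 4 pairs of arrays, open circles and filled squares for pairs of arrays with the same dye, and a grey band from the 10th to the 90th percentile of ORFs induced in wild type cells. *GSC2* and *SED1* lie to the left of 0 in *ptc1 ptc6* cells with their whole range and *PIR3* to the right, and in *ptc6* cells the whole range lies below 0 for *GSC2* and *PST1*.

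The 2 arrays of a strain differed in a way that recurred for the same gene. For *CRH1*, *HSP150*, *CIS3*, *PST1*, *SED1* and *CWP1* the ratio was higher in all 3 strains on the array on which rapamycin-treated cells carried Cy5, and for *CHS3* it was higher in all 3 on the Cy3 array. In *CIS3* the excess of the Cy5 array was 0.87 in *ptc1 ptc6*, 0.60 in *ptc6* and 0.49 in wild type cells. *HSP150* had 0.68, 0.48 and 0.44 in the same order of strains. A difference of the same sign in all 3 strains was found for 7 of the 9 genes and for 49.7% of 3110 ORFs with 6 values, and a higher Cy5 array in all 3 for 6 of the 9 genes and 35.4% of ORFs. *GSC2* and *PIR3* were the exceptions, with differences of at most 0.13 and 0.12 log2 units in any strain.

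Arrays with the same dye orientation were therefore set against each other, a comparison added after the values were seen. *HSP150* differed between *ptc6* and wild type cells by -0.03 and 0.01 (Cy3 and Cy5 arrays), beside -0.47 to 0.45 over all 4 pairs of arrays. In *ptc1 ptc6* cells *HSP150* was lower than in wild type cells in both orientations, with differences of -0.45 and -0.21, as were *CIS3* with -0.56 and -0.18 and *CRH1* with -0.34 and -0.11. *SED1* differed from wild type cells by -1.48 and -0.99 in the double mutant and by -0.27 and -0.17 in the *ptc6* strain. *CWP1* was higher than in wild type cells in both orientations, by 0.14 and 0.35 in *ptc1 ptc6* and by 0.12 and 0.24 in *ptc6* cells. For *PST1*, *ptc1 ptc6* minus wild type cells gave -0.28 and 0.17 and so changed sign with the dye, whereas *ptc6* minus wild type cells gave -0.48 and -0.56.

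**Figure D3:**
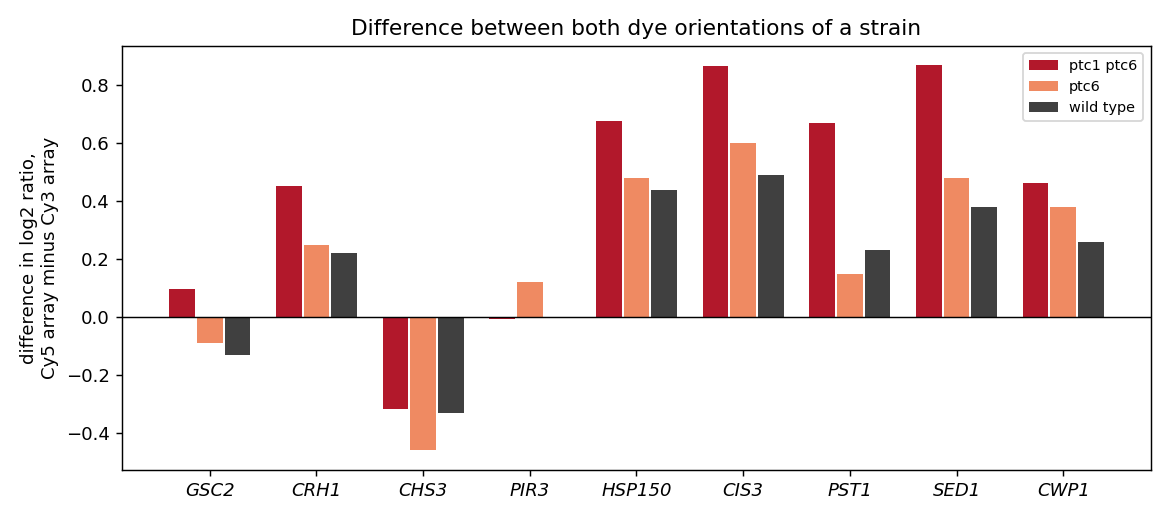
Bars give, for each of 9 cell wall genes and each strain, the log2 ratio on the array with rapamycin-treated cells in Cy5 minus that on the array with these cells in Cy3. The bars of 6 genes are above 0 in all 3 strains and those of *CHS3* below 0, with the tallest at 0.87 for *SED1* and *CIS3* in *ptc1 ptc6* cells.

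Other cell wall genes were taken from 5 lists compiled from general knowledge of yeast gene names, with 96 genes in all. On chromosome XII the ratios of *ptc1 ptc6* and wild type cells were unrelated across ORFs (Pearson r of 0.02 over 182 ORFs) and on chromosome XIII less related (0.54 over 194 ORFs), while r was 0.94 to 0.97 on each of the other 14. Between *ptc6* and wild type cells r was 0.97 on both chromosomes XII and XIII. Which strains the mismatch between *ptc1 ptc6* and wild type ratios comes from was not tested. The 22 list genes on these 2 chromosomes were counted apart because of it, and none of the 10 genes above is on either. Of the 74 others, 8 of 51 with values were induced in *ptc1 ptc6*, 6 of 45 in *ptc6* and 11 of 44 in wild type cells. The genes with values were not the same in each strain. Repression was called for 0 in *ptc1 ptc6*, 0 in *ptc6* and 2 in wild type cells. All ORFs had 12.2%, 10.6% and 14.7% induced and 15.2%, 14.2% and 18.8% repressed in *ptc1 ptc6*, *ptc6* and wild type cells, and these shares also stand behind the counts of single lists below.

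Of the list genes outside chromosomes XII and XIII, *KDX1* and *SLT2*, both in the list of CWI signalling, had the highest mean ratios in each strain. In each strain 4 genes of this list were induced, of 10 measured in *ptc1 ptc6*, 11 in *ptc6* and 11 in wild type cells. *KDX1* (YKL161C), which encodes a pseudokinase related to Slt2 and is a known Rlm1 target, had log2 ratios of 2.30 and 1.82 in *ptc1 ptc6*, 2.47 and 2.05 in *ptc6*, and 3.65 and 2.81 in wild type cells, so that both mutants lay below wild type on both arrays. *SLT2* (YHR030C), the MAP kinase itself, had 1.90 and 1.57 in *ptc1 ptc6*, 1.64 and 1.97 in *ptc6*, and 2.17 and 2.22 in wild type cells. It too was below wild type on both arrays of both mutants. *PTP2* (YOR208W), a tyrosine phosphatase that acts on MAP kinases, had 1.52 and 1.72 in *ptc1 ptc6*, 1.24 and 1.51 in *ptc6*, and 1.63 and 1.70 in wild type cells. *RLM1* (YPL089C) had 1.64 and 1.34, 1.11 and 1.48, and 1.15 and 1.42 in *ptc1 ptc6*, *ptc6* and wild type cells, with overlapping values. The paper lists *KDX1*, *SLT2* and *PTP2* as more than 2-fold higher in *ptc1 ptc6* than in wild type cells without rapamycin. A lower ratio of these genes in *ptc1 ptc6* cells therefore need not be a lower level after rapamycin.

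In the list of beta-glucan synthesis, 2 of 7 genes were induced in *ptc1 ptc6*, 0 of 6 in *ptc6* and 0 of 5 in wild type cells. These 2 were *SKN1* (YGR143W) and *KRE5* (YOR336W), both with a role in beta-glucan synthesis and named after their values were seen. *SKN1* had 1.34 and 1.04 in *ptc1 ptc6* cells but a value on the Cy3 array alone in the other strains, 1.51 in *ptc6* and 0.99 in wild type, and so was not counted there. *KRE5* had 1.22 and 1.09 in *ptc1 ptc6*, 1.15 and 0.77 in *ptc6*, and 1.32 and 0.59 in wild type cells. Its values overlapped wild type, and its means lay close to the threshold on either side. *SMI1* (YGR229C), a regulator of glucan synthesis, had -0.39 and -0.91 in *ptc1 ptc6*, -0.39 and -0.37 in *ptc6*, and -1.01 and -1.08 in wild type cells, where it was called repressed. *FKS1* (YLR342W), the main glucan synthase subunit and the paralog of *GSC2*, is on chromosome XII. For glucan remodelling, 0 of 9, 0 of 8 and 1 of 8 genes were induced in *ptc1 ptc6*, *ptc6* and wild type cells. *NCA3* (YJL116C), a protein of the SUN family, had -0.60 and -0.29 in *ptc1 ptc6*, -0.09 and -1.51 in *ptc6*, and -2.20 and -1.76 in wild type cells, the lowest wild type mean of the list genes outside chromosomes XII and XIII. *SIM1* (YIL123W), of the same family, had -1.13 and -0.80 in *ptc1 ptc6*, -1.02 and -0.72 in *ptc6*, and -1.02 and -0.77 in wild type cells, which did not separate the strains.

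Of the genes for chitin synthesis and turnover, 1 of 9, 1 of 8 and 2 of 8 were induced in *ptc1 ptc6*, *ptc6* and wild type cells. Among the other cell wall proteins, induction was called for 1 of 16 in *ptc1 ptc6*, 1 of 12 in *ptc6* and 4 of 12 in wild type cells, with median log2 ratios of 0.04, 0.27 and 0.60. These counts and medians do not cover the same genes in each strain. *SPI1* (1.64 and 1.49) and *AGA2* (1.69 and 2.04) were induced in wild type cells. In *ptc6* cells they had a value on the Cy3 array alone, 0.91 and 0.70, and were not counted. *FIT1* (YDR534C), a wall mannoprotein for the retention of iron siderophores that was named after its values were seen, had 0.17 and 0.19 in *ptc1 ptc6*, 1.28 and 1.34 in *ptc6*, and 1.60 and 1.65 in wild type cells. The paper lists *FIT1* too as more than 2-fold higher in *ptc1 ptc6* than in wild type cells without rapamycin. Its lower ratio in *ptc1 ptc6* cells therefore need not be a lower level after rapamycin. *TIR1* (YER011W), a mannoprotein of the wall also named for its values, had opposite signs on the 2 arrays of each mutant, with -3.07 and 2.79 in *ptc1 ptc6* and -4.02 and 3.51 in *ptc6* cells. In wild type cells the Cy5 array alone had a value, 3.44. The sign of *TIR1* followed the dye in both mutants, so its means there, -0.14 and -0.255, do not describe a response to rapamycin. Both means are included in the counts and medians of this list.

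**Figure D4:**
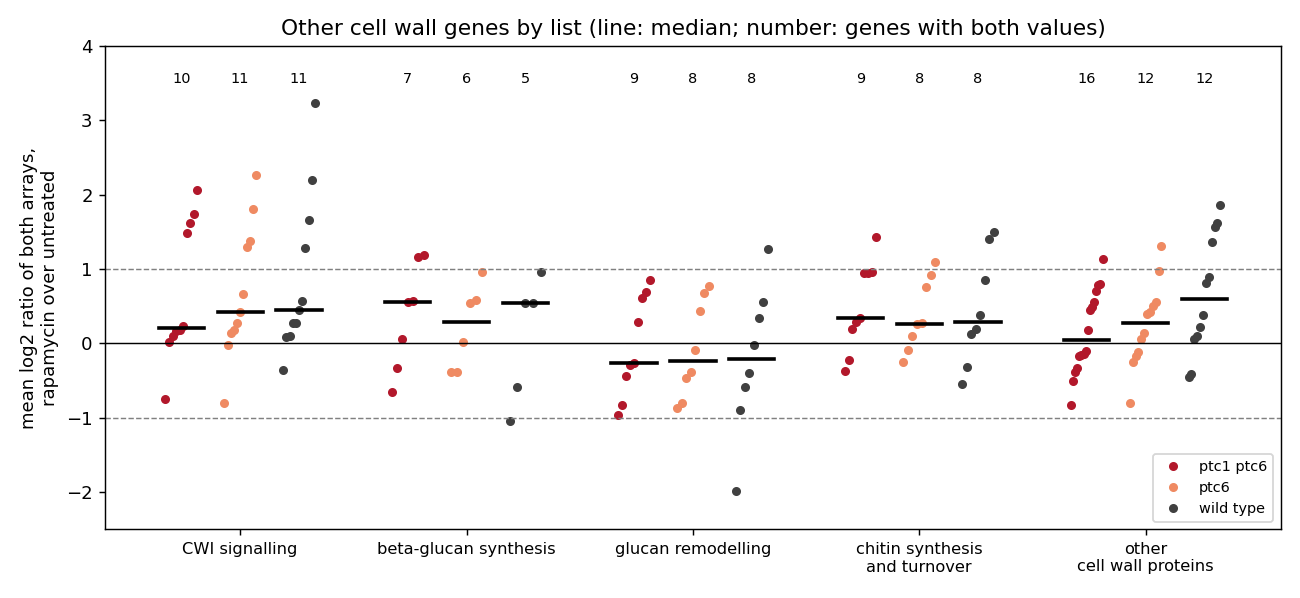
Points give the mean log2 ratio of rapamycin-treated over untreated cells for genes of 5 cell wall lists outside chromosomes XII and XIII in *ptc1 ptc6*, *ptc6* and wild type cells, with bars for the median, dashed lines at 2-fold and the number of genes with both values above each column. The highest points are the means of CWI signalling genes, at up to 2.06 in *ptc1 ptc6*, 2.26 in *ptc6* and 3.23 in wild type cells.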

How the data were processed

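Per the labels and the methods of the study, total RNA was labelled with Cy3 or Cy5 by indirect labelling and hybridized to arrays of PCR-amplified ORFs. The authors scanned the slides, dropped spots with a diameter below 120 µm or a signal below 150 units, and pre-processed the ratios with GEPAS. The method of normalization is not given in the sources used here. The deposited values are log2 ratios of rapamycin-treated over untreated cells, 1 column per array, already turned so that both dye orientations of a strain have the same sign. No intensity was used here, so signal over background is unknown.

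The mean of both arrays was taken for each ORF with 2 values in a strain, without further normalization, and 2-fold was the threshold, as in the study's methods. ORFs were matched to symbols in the R64 annotation (5639 of 6212). Named genes were all 10 members, the 3 highest and 3 lowest list genes in wild type cells outside chromosomes XII and XIII with 6 values, and the paralogs, kinase and factor of the pathway. The members and lists were chosen with earlier results of these data known. Alternatives were a value on 1 array, centred arrays, linear means, other thresholds, other ORF sets and leaving out each array. The calling steps were run on simulated ratios with planted changes far from the threshold and without a dye effect. That run checks the steps alone and says nothing about genes near the threshold. Python 3.11.15, numpy 2.4.6, pandas 2.3.3 and matplotlib 3.10.9 were used. No sequence is shown.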

Additional observations from a re-analysis of the deposited data

Results flagged for a closer look

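*FKS1* (YLR342W), the paralog of *GSC2*, was the only named gene with both values of 1 strain on the other side of 0 from both values of another. Its mean log2 ratio was 0.18 in *ptc1 ptc6* cells and -1.40 in wild type cells, a difference of 1.57, and against -0.78 in *ptc6* cells the difference was 0.95. Neither difference was tested. *FKS1* is on chromosome XII, where the ratios of *ptc1 ptc6* and wild type cells were unrelated across 182 ORFs (Pearson r of 0.02). Between *ptc6* and wild type cells r was 0.97 on this chromosome. Which strains the mismatch comes from, and how far it enters the values of *FKS1* in any of them, was not tested.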

How the results depend on the processing

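With a 3-fold threshold 2 of the 9 genes were induced in *ptc1 ptc6*, 3 in *ptc6* and 2 in wild type cells, against 5.19%, 4.66% and 6.99% of all ORFs. With 2-fold required on each array 2 were induced in *ptc1 ptc6* cells, against 9.43% of all ORFs. Leaving out 1 array at a time, the number of induced genes was 2 to 5 in *ptc1 ptc6*, 5 to 6 in *ptc6* and 6 to 7 in wild type cells, against 12.2% to 14.1%, 10.8% to 11.8% and 15.2% to 15.4% of all ORFs, and it was 2 without the *ptc1 ptc6* array with treated cells in Cy5. Genes without overlap, which are more frequent with 1 value in a strain, then numbered 5 to 7 (*ptc1 ptc6* and wild type), 4 to 7 (*ptc6* and wild type) and 6 to 7 (*ptc1 ptc6* and *ptc6*), against 66.7% to 79.9%, 72.1% to 75.1% and 64.6% to 78.0% of all ORFs in the same order. The median difference of the 9 genes ran from -0.45 to 0.01 for *ptc1 ptc6* minus wild type, from -0.24 to 0.04 for *ptc6* minus wild type and from -0.37 to 0.02 for *ptc1 ptc6* minus *ptc6* cells. With chromosomes XII and XIII included, the list genes called repressed numbered 3 in *ptc1 ptc6*, 3 in *ptc6* and 7 in wild type cells. All ORFs had 15.2%, 14.2% and 18.8% repressed in the same order. On these 2 chromosomes alone, 3 of 18, 3 of 16 and 5 of 14 list genes with values were repressed. The ratios of *ptc1 ptc6* and wild type cells were less related there (Pearson r of 0.02 and 0.54). None of the 9 genes was repressed under any of these alternatives. No paired analysis was possible because each strain is 1 biological replicate and no result comes from a test.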
